A study of Arabidopsis thaliana with 36 samples.

Results

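Plastid-encoded transcripts were followed in rosettes of Arabidopsis thaliana after a first cold treatment, a warm lag and a second cold treatment. They were taken as every locus whose identifier begins with ATCG and that had 10 or more counts in at least 3 of the 36 libraries of the STAR count table. This gave 88 of the 133 plastid loci, in a table of 33602 loci. Of the 45 plastid loci left out, 14 had no count in any library, and the highest count of any of them was 17. At the edge of the rule, ATCG01000 and ATCG00240 reached 10 counts in 7 and 8 libraries, while ATCG00390 and ATCG00570, which were left out, reached it in 2 and 1. The count rule was met in all 36 libraries by 71 members.

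The study set the accession N14, described in the labels as cold tolerant, against Col-0, described as intermediate. Each accession had 6 conditions with 3 libraries each, and 3 independent experiments were made. The titles number the libraries of a group 1 to 3, and this number is read here as the experiment, which the labels do not state outright. Plants given a first cold treatment at 28 days spent 3 days at 4 °C (C28P3) and were compared with 28-day controls (C28). Plants first cooled at 35 days (C35P3) were compared with 35-day controls (C35). Plants returned to 20 °C for 7 days after the first cold (the lag, C28P3L7) served as the control for plants then given another 3 days at 4 °C (the second cold, C28P3L7T3). All plants were unmodified wild-type accessions grown on soil. Light was 90 µE during cold and at least 200 µE in the greenhouse, so temperature and light cannot be told apart, and cooled plants were also 3 days older at sampling than their controls. Each library was a pool of 5 replicate samples, listed with 15 rosettes for C28 and C28P3 and with 4 for the other conditions.

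The plastid genome encodes part of the photosynthetic complexes, part of the plastid's own ribosome and RNA polymerase, and a few other proteins, while most partners of these subunits are encoded in the nucleus. Plastid genes lie in clusters that are often read into shared precursor RNAs, by a bacterial-type polymerase with nuclear-encoded sigma factors and by phage-type polymerases made in the nucleus. Unlike nuclear messenger RNA, most plastid RNA has no stable poly(A) tail, and short tails are added to RNA that is being degraded. The libraries were enriched for polyadenylated RNA, so the values below are levels of the plastid RNA that passed this enrichment, and its relation to total plastid RNA was not measured. In pooled whole rosettes, fewer plastids or cells and less RNA in each cannot be told apart.

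The files name the members by locus only. The reference's notes give a product for 5 members, and these are named below: ribosomal proteins L20 (ATCG00660) and S11 (ATCG00750) of the plastid ribosome, the plastid-encoded CLP P protein (ATCG00670), a subunit of the stromal Clp protease, a CemA-like protein related to proton extrusion (ATCG00530), and ATCG00430, listed as photosystem II reaction center protein G. The product name of ATCG00430 comes from the note alone and was not checked, so its values are not read as a photosystem II result. The other members are given by locus identifier, and their gene names are not used here.

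Library totals ran from 17861514 to 31046237 counts, and all 88 members were among the 20263 genes that passed the expression filter. In no pair of libraries of 1 group did the counts agree within sampling noise. The leaf markers RBCS1A, CAB2 and CA1 summed to between 19270 and 52780 CPM (counts scaled by the TMM-normalised library size) in every library. The root marker PYK10 lay at 0.649 to 13.8 CPM in the 18 cold libraries, against 10.1 to 132.6 CPM in the 18 control libraries. The 4 floral markers AP3, PI, AG and SEP3 summed to 0.125 to 1.07 CPM in N14, against 0.694 to 10.0 CPM in Col-0. None of these markers was at 0 in all libraries of a side, though 1 floral marker had at most 3 counts in every N14 library, and the part of these tissues in the results below was not tested.

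The plastid members together took 0.287% to 0.7003% of a library's counts, with a median of 0.434%, which was 61240 to 169700 counts. Mitochondrion-encoded loci took 0.00622% to 0.0148%. In the first cold at 28 days the plastid share averaged 0.407% ± 0.067 in cooled Col-0, against 0.507% ± 0.044 in its control, and 0.519% ± 0.157 in cooled N14, against 0.430% ± 0.078 in its control (SD, n = 3 each). At 35 days it averaged 0.465% ± 0.042 in cooled Col-0, against 0.441% ± 0.072, and 0.386% ± 0.095 in cooled N14, against 0.384% ± 0.058. In the second cold it averaged 0.410% ± 0.045 in Col-0, against 0.401% ± 0.059 after the lag, and 0.440% ± 0.076 in N14, against 0.405% ± 0.089. The highest single value, 0.7003%, belonged to replicate 2 of cooled 28-day N14, and the groups of each pair overlapped except in Col-0 at 28 days.

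**Figure D1:**
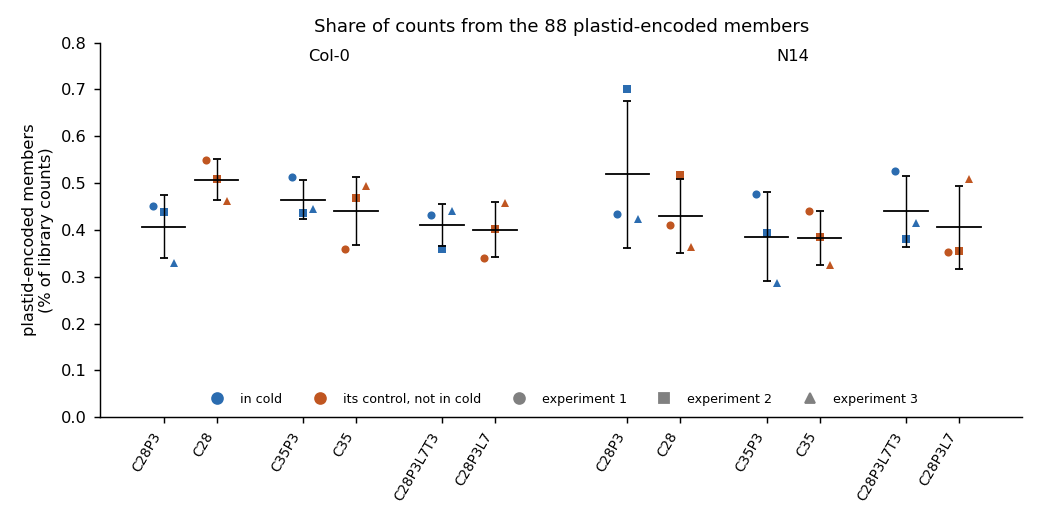
The vertical axis is the share of a library's counts held by the 88 plastid-encoded members, in percent, for each of 36 libraries. Points are libraries, with the shape giving the experiment, and bars are the mean ± SD of 3. Each cold group stands left of its control, and the 2 groups overlap in every pair but 28-day Col-0.

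Averaged over the 6 pairs, the plastid share differed by 0.03 on the log2 scale between cold and control (two-sided permutation test within pairs, 100000 resamples, p = 0.756), and it was higher in cold in 9 of 18 within-experiment pairs. Within experiments 1, 2 and 3 the difference was 0.22, 0.01 and -0.16, so its sign was not the same in each. N14 and Col-0 differed by -0.05 (p = 0.557, permutation test), but by 0.21 in the BWA table (p = 0.034) and by 0.20 in the RSEM table (p = 0.0402), where N14 was the higher. The size of the cold difference varied with the table, and its sign with the scaling, the experiment and single libraries. By the same permutation test it was 0.26 in the BWA table (p = 0.0065) and 0.26 in the RSEM table (p = 0.00655). With TMM-scaled library sizes it was -0.17 in the STAR table (permutation test, p = 0.0444). In the BWA and RSEM tables, 28 and 29 members that hold 21.4% of the STAR plastid counts were absent or at under 10% of their STAR counts, and of these 9 were called higher and 12 lower in cold in the STAR table. With all 36 libraries, the difference was above 0 in all 7 tables with library totals and below 0 with TMM-scaled sizes, which were tried on STAR only. With each library left out in turn it ran from -0.01 to 0.06 in STAR. No direction for the plastid total is therefore given here.

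**Figure D2:**
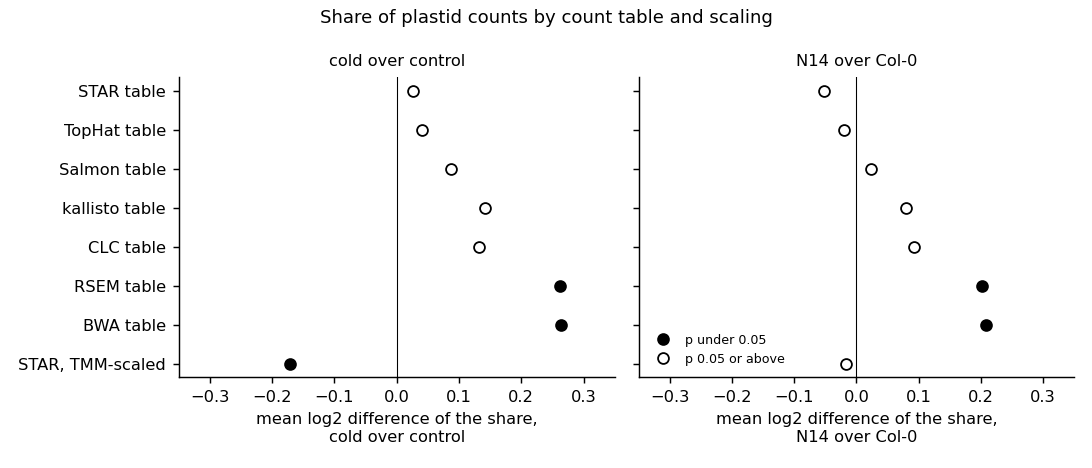
The horizontal axis is the mean log2 difference of the plastid share, cold over control at left and N14 over Col-0 at right, by count table and scaling. Filled points have p under 0.05. The cold difference lies between -0.17 and 0.26, above 0 in the 7 tables and below 0 with TMM-scaled library sizes.

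Behind this total, single members moved in both directions. In the average of the 6 cold pairs, 41 members were called higher and 18 lower at an adjusted p under 0.05 (edgeR's quasi-likelihood test, Benjamini-Hochberg over all 20263 genes). Of all genes tested, 37.6% were called higher, 40.4% lower and 78.0% in all, so the 59 of 88 members called are not above the background. The members' median log2 change was 0.33, against -0.04 over all genes. At least 2-fold changes were reached by 12 of the called members upward and 6 downward, and the share of all genes at that size was not computed. Of the 22 mitochondrion-encoded genes tested, 3 were called higher and 13 lower, with a median of -0.70.

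The transcripts of L20 and S11, the 2 members with a ribosomal protein in the notes, were called higher in the cold average. For L20 (ATCG00660), 28-day Col-0 had 5.43, 3.00 and 2.68 CPM in cold, against 3.16, 4.30 and 1.81 CPM in control, and 28-day N14 had 4.01, 5.15 and 3.10 CPM, against 2.23, 2.84 and 1.84 CPM. At 35 days Col-0 had 8.02, 5.38 and 4.33 CPM in cold, against 1.53, 1.92 and 1.65 CPM in control, and N14 had 4.02, 3.16 and 1.64 CPM in cold, against 1.76, 1.36 and 1.59 CPM. In the second cold Col-0 had 2.32, 4.07 and 1.89 CPM, against 2.05, 1.99 and 1.19 CPM after the lag, and N14 had 2.65, 2.91 and 3.05 CPM, against 1.06, 1.40 and 1.13 CPM. The groups were apart in 35-day Col-0 and in N14 at 28 days and in the second cold, and overlapped in the other 3 pairs. Its average cold change was 0.95 ± 0.14 on the log2 scale (SE, adjusted p = 5.6e-07 in edgeR). S11 (ATCG00750) ran from 17.7 to 108.7 CPM in cooled N14, against 16.1 to 41.04 CPM in its controls, and from 9.39 to 54.3 CPM in cooled Col-0, against 9.11 to 37.8 CPM. Its average change was 0.71 ± 0.14 (adjusted p = 6.1e-05), and of the 6 single pairs only 28-day N14 was called, at 1.39 ± 0.35 (adjusted p = 0.0014).

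The CLP P transcript (ATCG00670) fell. In 28-day plants Col-0 had 15.3, 15.9 and 13.7 CPM in cold, against 35.1, 30.4 and 23.5 CPM in control, and N14 had 16.0, 20.5 and 17.8 CPM, against 31.6, 27.1 and 21.4 CPM. In 35-day plants Col-0 had 21.6, 15.7 and 16.8 CPM in cold, against 22.2, 25.3 and 34.7 CPM, and N14 had 19.2, 17.2 and 12.5 CPM, against 30.5, 23.2 and 19.8 CPM. In the second cold Col-0 had 15.0, 14.9 and 17.8 CPM, against 19.2, 17.6 and 24.6 CPM after the lag, and N14 had 18.2, 14.7 and 16.8 CPM, against 23.3, 20.6 and 35.2 CPM. Every cold library was below every control library of its pair except in Col-0 in the second cold. Its average cold change was -0.63 ± 0.09 (adjusted p = 1.6e-07, edgeR). ATCG00430 changed by -0.46 ± 0.10 (adjusted p = 2.0e-04), and it was called lower in both 28-day pairs, by -1.01 ± 0.25 in Col-0 and -0.95 ± 0.25 in N14. It was at 0.36 ± 0.25 in Col-0 in the second cold, where it was not called. The CemA-like transcript (ATCG00530) ran from 4.65 to 16.9 CPM in cold, against 6.49 to 16.6 CPM in control, and was not called at -0.19 ± 0.12 (adjusted p = 0.14).

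The largest rise was that of ATCG00180. In 28-day Col-0 it had 17.0, 12.02 and 8.28 CPM in cold, against 2.19, 1.42 and 3.10 CPM in control, and in 28-day N14 21.1, 20.4 and 11.4 CPM, against 0.956, 2.16 and 0.966 CPM. At 35 days it had 13.3, 8.51 and 2.43 CPM in cooled Col-0, against 0.999, 1.00 and 0.363 CPM, and 10.0, 6.30 and 4.08 CPM in cooled N14, against 1.07, 0.533 and 1.202 CPM. In the second cold it had 3.11, 4.98 and 2.01 CPM in Col-0, against 0.713, 1.25 and 0.725 CPM, and 4.74, 8.62 and 7.64 CPM in N14, against 0.579, 0.860 and 2.25 CPM. Cold and control libraries were apart in all 6 pairs. The average change was 2.80 ± 0.22 (adjusted p = 3.0e-12, edgeR). The next locus numbers moved with it, ATCG00170 by 2.25 ± 0.20 and ATCG00190 by 2.08 ± 0.12. ATCG00240 was called at 2.55 ± 0.45, but its counts ran only from 0 to 52 with a median of 3.

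The largest fall was that of ATCG01020. It had 78.6, 141 and 93.6 CPM in cooled 28-day Col-0, against 352, 671 and 272 CPM in control, and 29.8, 51.9 and 50.04 CPM in cooled 28-day N14, against 288, 192 and 204 CPM. At 35 days it had 225, 238 and 403 CPM in cooled Col-0, against 428, 947 and 650 CPM, and 125, 72.7 and 52.7 CPM in cooled N14, against 356, 332 and 98.0 CPM. In the second cold it had 296, 197 and 520 CPM in Col-0, against 476, 706 and 716 CPM, and 116, 70.1 and 144 CPM in N14, against 213, 194 and 419 CPM. Groups overlapped in 35-day N14 and in Col-0 in the second cold, where it was not called (-0.91 ± 0.45, adjusted p = 0.11, edgeR), and were apart in the other 4 pairs. The average change was -1.59 ± 0.19 (adjusted p = 7.3e-09). ATCG00080 followed at -1.48 ± 0.17, with 1.32 to 10.1 CPM in cold, against 3.01 to 17.9 CPM in control.

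**Figure D3:**
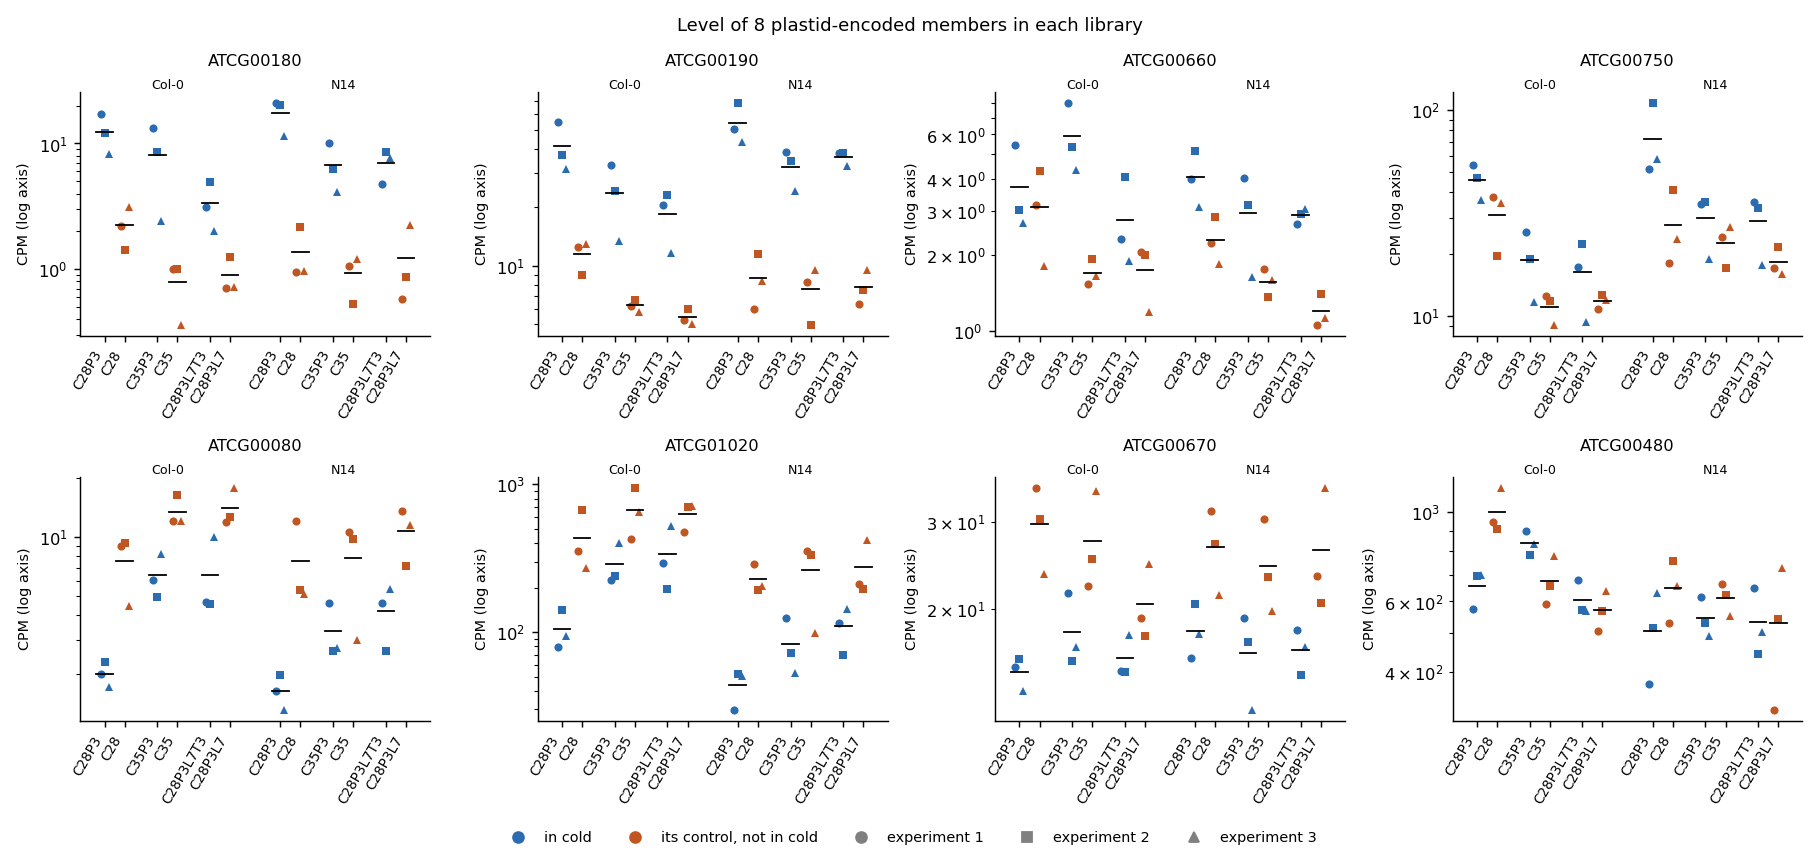
Each panel gives the level of 1 member in CPM on a log axis, by library, with each cold group left of its control and a bar at the mean of 3 libraries. ATCG00180 and ATCG00190 are above their control in every pair of groups, ATCG00080 and ATCG01020 have means below it in every pair, and ATCG00480 lies between 322.5 and 1151 CPM, with cold below control in 28-day Col-0, above it in 35-day Col-0 and overlapping it in the other 4 pairs.

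Taken singly, the 6 cold pairs share no library, and their counts are given with the share of all genes called in the same direction. In the first cold at 28 days, 27 members were called in Col-0, where 54.7% of all genes were called. They were 11 higher (26.7% of all genes) and 16 lower (28.0%). In N14 it was 49 members, where 56.8% of all genes were, with 32 higher (27.6%) and 17 lower (29.2%). At 35 days it was 42 in Col-0 (51.8% of all genes), with 34 higher (26.7%) and 8 lower (25.2%). In N14 it was 21 (54.0%), with 11 higher (25.0% of all genes) and 10 lower (29.0%). The second cold gave 17 in Col-0 (40.2%), with 13 higher (21.6%) and 4 lower (18.7%), and 22 in N14 (46.6%), with 14 higher (22.4%) and 8 lower (24.2%). The count in 35-day Col-0 rested on 1 library, since it was 20 without replicate 1 of the cooled group. That in the second cold of Col-0 ran from 8, without replicate 2 of the cooled group, to 17. It was 10 without replicate 1 of the cooled group, 11 without replicate 1 of the lag group, 11 without its replicate 2 and 10 without its replicate 3. In N14 it was 13 without replicate 2 of the cooled group.

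The 5 loci ATCG00050, ATCG00170, ATCG00180, ATCG00190 and ATCG00410 were called higher in all 6 pairs, and 4 were called lower in all 6, namely ATCG00070, ATCG00080, ATCG00090 and ATCG00550. Called in at least 4 pairs were 13 members upward and 8 downward, 3 were called upward in some pairs and downward in others, and 28 were called in none. The share of all genes called in as many pairs was not computed. Whether these counts over several pairs, including all 6, differ from those of all genes is therefore not known. Of the 41 members called higher in the average, 35 had a positive change in all 6 pairs, and 41, 41 and 39 of them were positive within experiments 1, 2 and 3. Of the 18 called lower, 13 were negative in all 6 pairs, and 18, 18 and 17 within the experiments. Both sets were chosen by the average of these same pairs and experiments. Their agreement with its parts was thus largely set in advance and is a description only.

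ATCG00410, among those called in every pair, had 11.7, 6.78 and 1.48 CPM in cooled 35-day Col-0, against 0.433, 0.335 and 0.161 CPM in control, a change of 4.38 ± 0.67 (adjusted p = 4.7e-06, edgeR). Its change in the other 5 pairs ran from 1.76 ± 0.62 in 28-day Col-0 to 2.31 ± 0.63 in N14 in the second cold. ATCG00050 was at 0.509 to 4.77 CPM in cold, against 0.0431 to 0.956 CPM in control. Downward, ATCG00550 was at 5.32 to 17.9 CPM in cooled Col-0, against 10.4 to 37.4 CPM in its controls, and at 5.62 to 11.8 CPM in cooled N14, against 8.59 to 20.3 CPM.

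Some members with the same call had consecutive locus numbers, as a description with no test. Runs of at least 3 consecutive members called higher were ATCG00020 to ATCG00050, ATCG00170 to ATCG00190 (2.08 to 2.80), ATCG00280 to ATCG00300, ATCG00340 to ATCG00370, ATCG00700 to ATCG00770, a run of 8 with changes of 0.57 to 0.93, and ATCG00800 to ATCG00820. The 1 such run called lower was ATCG00070 to ATCG00090, with changes of -1.48 to -1.38. Across all members, the correlation between the cold changes of consecutive members was 0.207 (Pearson, 87 pairs of members in the same libraries, a description). The annotation's coordinates were not used here. Where neighbouring genes share a precursor, reads may be split between them, and no source used here states the strand setting of these counts.

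**Figure D4:**
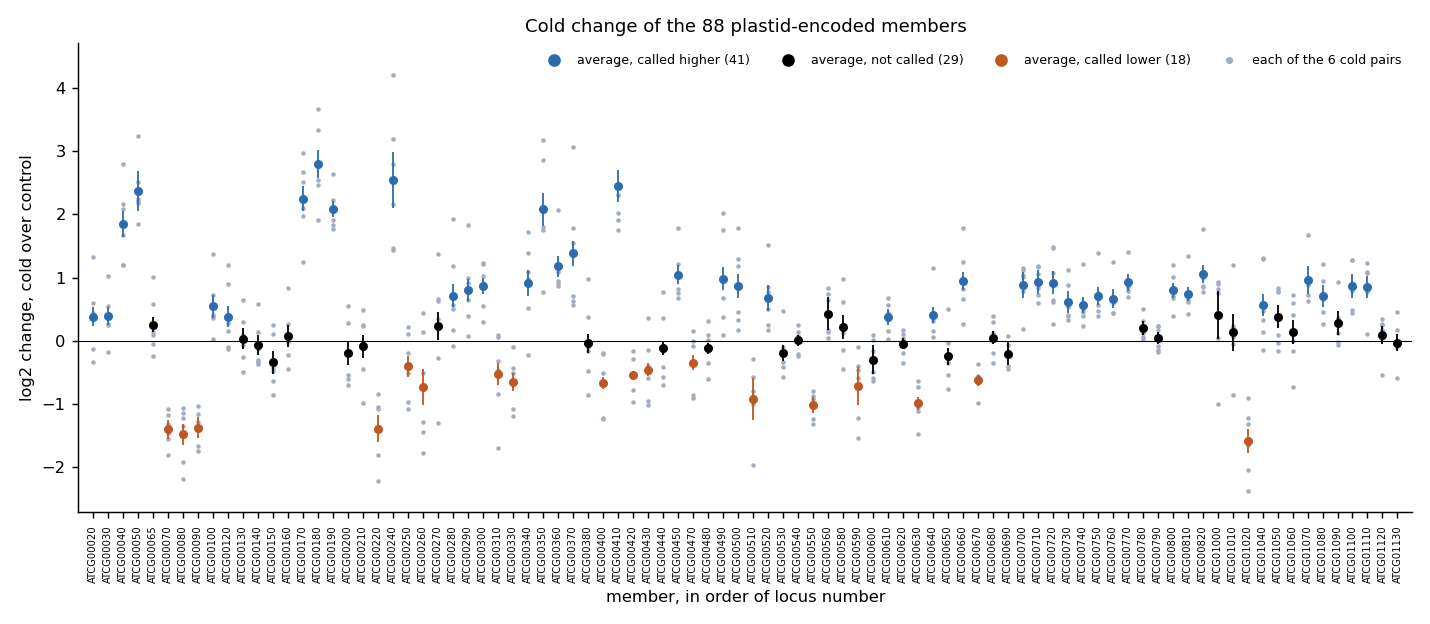
The vertical axis is the log2 change of each of the 88 members, cold over control, and the horizontal axis their order by locus number. Large points with bars are the average over 6 pairs ± SE, coloured by call, and small grey points the single pairs. The highest averages are at ATCG00180, ATCG00240 and ATCG00410, and the lowest at ATCG01020 and ATCG00080.

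By mean level, the 10 most abundant members held 71.9% of plastid counts, and 1 of them was called higher and 5 lower in the cold average, with a median of -0.23. Members ranked 11 to 44 had 18 higher and 6 lower (median 0.38), and those ranked 45 to 88 had 22 higher and 7 lower (median 0.40). Of all genes, 37.6% were called higher and 40.4% lower. The share among genes of like level was not computed, so these counts are a description. Mean level and change had a correlation of -0.231 (Pearson, 88 members, the same libraries on both axes, a description). The most abundant locus, ATCG00480, was at 372.8 to 900.9 CPM in cold, against 322.5 to 1151 CPM in control, and was not called in the average at -0.12 ± 0.08. It was called lower in 1 pair, 28-day Col-0, with 575.2, 694.9 and 697.1 CPM in cold, against 946.4, 908.3 and 1151 CPM in control (-0.61 ± 0.21, adjusted p = 0.015, edgeR). The next, ATCG00470, was at 245.8 to 812.6 CPM in cold, against 371.6 to 976.7 CPM, and was called at -0.34 ± 0.11 (adjusted p = 0.0077, edgeR).

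The make-up of the plastid counts differed accordingly, as a description of members chosen by their call. The 41 members called higher held 26.8% of plastid counts in cooled 28-day Col-0, against 12.8% in control, and 35.4% in cooled 28-day N14, against 14.8%. In the second cold they held 15.3% in Col-0, against 8.01% after the lag, and 24.6% in N14, against 16.4%. The 18 called lower held 25.01% in cooled 28-day Col-0, against 42.1% in control, and 18.9% in cooled 28-day N14, against 40.5%.

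Of 20 nuclear genes for plastid transcription, 16 were called higher and 2 lower in the cold average, where 37.6% of all genes were called higher and 40.4% lower. Their median was 0.91, against -0.04 over all genes, and the 18 of 20 called in either direction stand beside 78.0% of all genes. SCA3, a phage-type RNA polymerase of the plastid, rose by 1.66 ± 0.11 (adjusted p = 3.7e-14, edgeR), and PDE312, a protein associated with the bacterial-type polymerase, by 1.34 ± 0.09. SIG4, a sigma factor, fell by 1.08 on the log2 scale (-1.08 ± 0.06). Of 13 genes for plastid RNA binding and decay, 7 were higher and 4 lower (median 0.26), and 11 of 13 called is again beside 78.0% of all genes. Among them emb2746, the plastid ribonuclease J, rose by 1.92 ± 0.11, RIF10, the polynucleotide phosphorylase that trims and tails plastid RNA, by 1.22 ± 0.10, and CSP41A, an endonuclease, changed by -0.58 ± 0.08.

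All 35 listed nuclear-encoded partners of the photosynthetic complexes were called lower in the cold average, with a median of -1.64, where 40.4% of all genes were called lower. The 35 were chosen with earlier results of these data known, and whether they include every nuclear partner was not checked. RBCS2B, a small subunit of Rubisco, changed by -3.78 ± 0.10 and PSAD-2, a photosystem I subunit, by -2.48 ± 0.09 (adjusted p = 1.4e-19, edgeR). The smallest change was that of RBCS1B, at -0.34 ± 0.13 (adjusted p = 0.019). Where 31 of the 88 plastid members had a negative average change, all 35 of these nuclear genes did, and that difference was not tested.

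After the 7-day lag no plastid member was called different from the 35-day control. Lag plants against 35-day controls gave 0 members called, where 0% of all genes were called (edgeR), with 1 member and 1136 genes at an unadjusted p under 0.05, and 0 members by DESeq2. The members' changes ran from -0.91 to 0.65, with a median of -0.01, and the plastid share differed by -0.03 (exact permutation test within accessions, p = 0.83). A missing call does not show equal levels, and lag plants were 38 days old at sampling, against 35 days in controls.

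Against the end of the first cold, the lag gave 59 members called, 19 higher (34.8% of all genes) and 40 lower (33.9%), where 68.7% of all genes were called. This comparison shares its cold libraries with the 28-day cold pairs, so its direction is not separate evidence. Lag plants were 38 days old at sampling and listed with 4 rosettes, against 31 days and 15 rosettes at the end of cold. The return to 20 °C, age and pool size therefore cannot be told apart. ATCG00180 had 0.713, 1.25 and 0.725 CPM in lag Col-0, against 17.0, 12.02 and 8.28 CPM at the end of cold, and 0.579, 0.860 and 2.25 CPM in lag N14, against 21.1, 20.4 and 11.4 CPM. Its change was -3.84 ± 0.40 (adjusted p = 2.0e-09, edgeR), the largest fall, followed by ATCG00190 at -2.87 ± 0.22. ATCG00080 rose by 2.76 ± 0.31 and ATCG00220 by 2.75 ± 0.38. L20 (ATCG00660) changed by -1.42 ± 0.25 and S11 (ATCG00750) by -1.97 ± 0.26, and CLP P (ATCG00670) rose by 0.50 ± 0.15. The plastid transcription list had 2 higher and 17 lower of 20, and the nuclear partners 34 higher and 0 lower of 35.

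The second cold was set against a first cold at 35 days. No member was called (0 of 88), where 2.09% of all genes were (0.642% higher and 1.45% lower), with 5 members at an unadjusted p under 0.05 and 0 called by DESeq2. The members' median change was -0.10, with a range of -0.97 to 0.71. A missing call does not show equal levels. Second-cold plants were 41 days old at sampling, against 38 days for first-cold plants, so cold history and age cannot be told apart. ATCG00180 had 3.11, 4.98 and 2.01 CPM in second-cold Col-0, against 13.3, 8.51 and 2.43 CPM in first-cold Col-0, and 4.74, 8.62 and 7.64 CPM in N14, against 10.0, 6.30 and 4.08 CPM. The Col-0 groups overlapped and so did those of N14, and the change of -0.61 ± 0.34 was not called (adjusted p = 0.55, edgeR).

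Age gave 10 called members in 35-day against 28-day controls, 1 higher (3.51% of all genes) and 9 lower (4.25%), where 7.76% of all genes were called. The 9 were ATCG00750 to ATCG00790, ATCG00820, and ATCG01100 to ATCG01120. ATCG01110 had 6.59, 8.20 and 6.25 CPM in 35-day Col-0, against 47.4, 16.2 and 27.2 CPM at 28 days, and 11.5, 8.59 and 12.7 CPM in 35-day N14, against 18.9, 30.5 and 13.3 CPM. Its groups were apart in both accessions, with a change of -1.52 ± 0.31 (adjusted p = 0.0058, edgeR). ATCG01100 changed by -1.24 ± 0.34 (adjusted p = 0.025), and S11 (ATCG00750) by -0.88 ± 0.25 (adjusted p = 0.033). The 1 member called higher was ATCG00630, at 0.58 ± 0.18 (adjusted p = 0.050). The count was sensitive to single libraries, since it was 2 without replicate 1 of 28-day Col-0 and 2 without replicate 2 of 28-day N14. It was 4 without replicate 3 of 28-day Col-0, 6 and 5 without replicates 1 and 2 of 35-day Col-0, and 5 and 4 without replicates 1 and 2 of 35-day N14. The 28-day pools were listed with 15 rosettes and the 35-day pools with 4, so age and pool size cannot be told apart. The root marker PYK10 was at 12.7 to 85.1 CPM in 35-day plants, against 46.4 to 132.6 CPM in 28-day plants, and was not called (-1.28 ± 0.44, adjusted p = 0.068, edgeR). The 4 floral markers summed to 0.344 to 8.16 CPM at 35 days, against 0.506 to 1.00 CPM at 28 days, and 1 of them, PI, was called higher (2.11 ± 0.64). Their part in the age result was not tested. The plastid share differed by -0.19 (exact permutation test, p = 0.165), and by -0.37 in the BWA table (exact p = 0.045) and -0.37 in the RSEM table (exact p = 0.040). For nuclear genes, the plastid transcription list had 0 higher and 8 lower of 20.

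N14 and Col-0 differed in 33 members over the mean of the 6 conditions, 22 higher (23.2% of all genes) and 11 lower (20.3%) in N14, where 43.5% of all genes were called. The members' median difference was 0.03. Among the called members, 7 reached 2-fold, 4 higher and 3 lower, and the share of all genes at that size was not computed. In the STAR counts, the differences were large and held in every condition for ATCG00380 and ATCG00620. ATCG00380 was at 21.4 to 75.4 CPM in the 18 N14 libraries, against 1.62 to 8.11 CPM in the 18 Col-0 libraries, with no overlap, a difference of 3.48 ± 0.17 (adjusted p = 6.4e-17, edgeR). In the BWA, CLC, RSEM, Salmon and kallisto tables this difference was 1.98 to 2.12. Of the members called in STAR, 2 had the opposite sign in the CLC and Salmon tables. ATCG00080 was at -0.51 in STAR, 0.06 in CLC and 0.01 in Salmon, and ATCG00820 at 0.66 in STAR, -0.07 in CLC and -0.20 in Salmon. ATCG00620 was at 7.42 to 13.2 CPM in N14, against 16.6 to 48.0 CPM in Col-0, also with no overlap, a difference of -1.74 ± 0.09 (adjusted p = 5.4e-16). ATCG00620 was not in the BWA, kallisto and Salmon tables. Its mean count against that in STAR was at log2 -9.05 in both CLC and RSEM.

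ATCG00220 was at 13 to 132.7 CPM in N14, against 61.4 to 850.2 CPM in Col-0, a difference of -2.87 ± 0.22 (adjusted p = 6.1e-12, edgeR). Its counts varied widely with the table. Against its mean in STAR, it was at log2 -9.98 in BWA, -10.01 in RSEM and -4.3 in CLC. It was at -1.64 in kallisto, -0.86 in Salmon and -0.24 in TopHat. ATCG00020 was at 126 to 310.9 CPM in N14, against 36.2 to 212.7 CPM in Col-0, a difference of 1.49 ± 0.16. Among the members with a noted product, ATCG00430 was higher in N14 by 0.84 ± 0.10 (adjusted p = 7.8e-08) and S11 (ATCG00750) by 0.61 ± 0.14 (adjusted p = 0.00096). L20 (ATCG00660) at -0.31 ± 0.14, CLP P (ATCG00670) at 0.04 ± 0.09 and the CemA-like member (ATCG00530) at -0.13 ± 0.12 were not called. The labels give no plastid sequence for either accession, and whether reads of N14 map to each locus as well as those of Col-0 was not tested. The 4 floral markers were all called lower in N14, with SEP3 at -3.17 ± 0.25 and AP3 at -3.11 ± 0.53, and the plastid transcription list had 8 higher and 1 lower of 20.

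**Figure D5:**
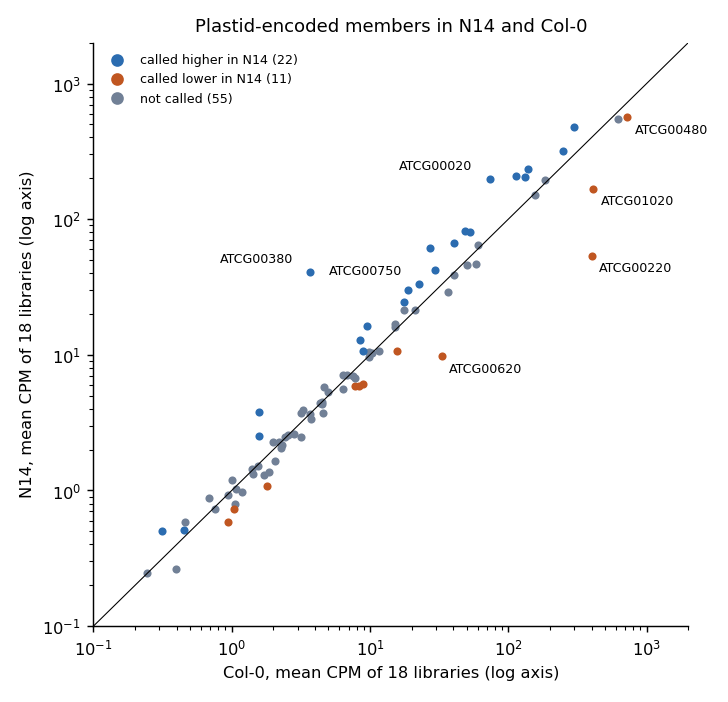
Each point is 1 of 88 members, with its mean CPM over 18 N14 libraries on the vertical axis and over 18 Col-0 libraries on the horizontal axis, both on log axes, and the line marks equal levels. Most points lie near the line, and ATCG00380 lies well above it and ATCG00220, ATCG00620 and ATCG01020 well below it.

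The cold response itself differed between accessions for 1 member, with a lower value in N14 (4.05% of all genes, and 6.04% in either direction). ATCG00370 had 0.821, 0.707 and 0.787 CPM in cooled 28-day Col-0, against 0.423, 0.133 and 0.215 CPM in control, and 0.712, 0.809 and 0.463 CPM in cooled 28-day N14, against 0.478, 0.360 and 0.506 CPM. At 35 days ATCG00370 had 1.01, 0.762 and 0.288 CPM in cooled Col-0, against 0.0333, 0.0836 and 0.121 CPM. In 35-day N14 it had 0.826, 0.589 and 0.469 CPM in cold, against 0.417, 0.296 and 0.429 CPM. Its counts ran only from 1 to 40 over the 36 libraries, with a median of 10. Its mean cold change was smaller in N14 than in Col-0 by 1.501 on the log2 scale (-1.501 ± 0.40, adjusted p = 0.021, edgeR). The count was 3 without replicate 3 of cooled 35-day Col-0, and 2 without replicate 3 of 28-day N14, of cooled 28-day Col-0 or of 35-day Col-0, or replicate 1 of second-cold N14. Within single pairs of conditions, a comparison added after the data were seen, 0 members were called at 28 days, 0 at 35 days and 0 in the second cold, where 0.301%, 0.266% and 0.262% of all genes were. Unadjusted p-values under 0.05 were held by 6, 9 and 2 members, and DESeq2 called 0 in each. The members' median difference of response, N14 minus Col-0, was 0.41 at 28 days, -0.47 at 35 days and -0.18 in the second cold.

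The 3 experiments differed in 2 members, ATCG01100 and ATCG01110, where 2.23% of all genes were called (edgeR, an F test with group in the model). ATCG01100 was lower in experiment 3 than in experiment 1 by 0.79 on the log2 scale (-0.79, adjusted p = 0.017), and ATCG01110 by 0.67 (-0.67, adjusted p = 0.038). Unadjusted p-values under 0.05 were held by 20 members, and with each library left out in turn the count of called members ran from 1 to 7. The plastid share averaged 0.440% ± 0.068, 0.445% ± 0.097 and 0.413% ± 0.071 in experiments 1, 2 and 3 (SD, n = 12 each), and its spread over experiments was 0.10 on the log2 scale (permutation test, p = 0.557).

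The deposited tables counted the plastid loci unequally. The BWA, kallisto and Salmon tables held 73 of the 88 members, and 15 were not in them. Of the members in each table, 20 in BWA, 21 in CLC, 10 in kallisto and 36 in RSEM were more than 2-fold below their STAR counts, against 0 in Salmon and 1 in TopHat. Of the 59 members called in the cold average, 43 could be tested in the BWA table and 40 of them were called in the same direction, and in TopHat this was 58 of 58. Directions turned for ATCG00590, at -0.72 with 0 to 0.964 CPM in cold, against 0.129 to 1.11 CPM in control in STAR, and at 1.15 in kallisto (adjusted p = 0.0011, edgeR) and 0.71 in Salmon (adjusted p = 0.0032). They also turned for ATCG00700, at 0.88 in STAR and at -0.03 in BWA and -0.04 in RSEM. In CLC too, 1 of the members called in STAR had the opposite sign. Scaling to the plastid total gave 48 members higher and 13 lower, with the median of all genes at 0.13 in place of -0.04.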

How the data were processed

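Polyadenylated RNA of 36 libraries was sequenced with a directional kit, per the labels' protocols. Per the submitters' processing notes the build was TAIR10, and the tools named there are HTSeq 0.7.2, Salmon 0.6.0, TopHat2 2.1.1, SAMtools 1.3, STAR 2.5.2a, BWA 0.7.13, kallisto 0.42.5 and RSEM 1.2.30. The authors deposited whole-number raw counts from STAR, TopHat, BWA and CLC. The authors also deposited expected counts from Salmon, kallisto and RSEM, which were rounded here. The BWA table held its block of values in 2 copies, of which the first was used.

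The main fit was edgeR 4.0.16 (quasi-likelihood, filterByExpr, TMM) in R 4.3.3 on the STAR counts with 12 group means, adjusted over all 20263 genes and tested on simulated data. A call is an adjusted p under 0.05. DESeq2 1.42.0 was an alternative. Plastid shares were tested by permuting libraries within strata (100000 resamples, or all 400 arrangements, whose smallest p is 0.005). There were 3 independent experiments, per the labels. The library number was not a block in the main fit, and the fit with it is given in the closing section. Members and lists were chosen with earlier results of these data known. Named are the members with a product in the reference's notes, the 2 most abundant, at most 2 rises and 2 falls a comparison, members called in every cold pair, and members whose direction turned between tables. A fuller rule by gene symbol could not be applied, since 0 of 133 plastid loci matched a gene of the TAIR10.1 table by identifier, against 32835 of 33323 nuclear loci. No sequence or coordinate was used, as the builds differ. The alternatives were another table, scaling, filter or test, an experiment block and each library left out.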

Additional observations from a re-analysis of the deposited data

Results flagged for a closer look

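The mean cold response of ATCG00370 differed between the accessions, with a test of the difference itself (N14 minus Col-0, log2 -1.501 ± 0.40, adjusted p = 0.021 in edgeR over all genes). Its cold change was 0.56 ± 0.45, 0.71 ± 0.46 and 0.63 ± 0.47 in N14 at 28 days, at 35 days and in the second cold, and 1.54 ± 0.47, 3.07 ± 0.56 and 1.79 ± 0.50 in Col-0. Levels were low, at 0.296 to 0.826 CPM in N14 and 0.0333 to 1.22 CPM in Col-0. It was not tested in the BWA, CLC, kallisto, RSEM or Salmon tables.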

How the results depend on the processing

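Counts of called members kept within 1.5 times the main count under DESeq2's size factors and with no filter on low counts, and so did those run under DESeq2's test, which was not run for the experiments. With another table, the count for age was 6 in BWA, and that for experiments 0 in CLC (edgeR) and 1 with scaling to the plastid total. By permutation tests the plastid share in cold was 0.26 in BWA (p = 0.0065), 0.26 in RSEM (p = 0.00655) and -0.17 with TMM-scaled libraries (p = 0.0444). For N14 against Col-0 the permutation test gave 0.21 in BWA (p = 0.034) and 0.20 in RSEM (p = 0.0402), and for age -0.37 in BWA (p = 0.045) and -0.37 in RSEM (p = 0.040). The cold change of ATCG00380, not called in STAR at -0.04, was 0.55 in BWA, 0.50 in CLC, 0.51 in kallisto, 0.55 in RSEM and 0.48 in Salmon. The cause of these shifts was not tested.

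With each library left out in turn, called members numbered 57 to 62 for the cold average, 18 to 28 and 38 to 46 for 28-day Col-0 and N14, 20 to 45 and 14 to 20 for 35-day Col-0 and N14, and 8 to 17 and 13 to 21 for the second cold. They numbered 57 to 61 for the lag against the end of cold, 2 to 13 for age, 31 to 35 for N14 against Col-0, 1 to 3 for its cold response and 1 to 7 for the experiments. The lag against its control, the second against the first cold and the 3 added differences stayed at 0. Differences in plastid share ran from -0.01 to 0.06 for cold, -0.09 to -0.02 for N14, -0.12 to 0.02 for the lag, -0.24 to -0.12 for age and 0.06 to 0.16 for experiments.

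The labels do not say that the library number marks the experiment. Deviations of same-number libraries correlated above 0.1 in 84 of 198 pairs, with a median of 0.0689, against -0.0293 for other pairs, so whether the number pairs the libraries was not settled. With the number as a replicate block, 60 members were called in the cold average, 36 for N14 against Col-0 and 10 for age, and the plastid share in cold had p = 0.707 (permutation). Under the block no count of calls moved by over 1.5 times. Depth limits the low members, of which 11 averaged under 1 CPM.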
